A study of Mus musculus with 3 samples.

Results

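The 10 genes described here are members of the Notch pathway: the receptors Notch1, Notch2 and Notch3, the glycosyltransferase gene Lfng, the ligand ubiquitin ligase gene Mib1, the nuclear factors Rbpj and Maml1, and the target genes Dtx1, Hes1 and Nrarp. They were taken by name as the probe sets whose only gene symbol is one of these, with the brightest probe set by 3-array mean standing for a gene, which gave all 10 of 10 genes among 19938 with a symbol. Expression was measured on 3 microarrays of CD4+ CD8+ double-positive (DP) thymocytes, each for a different cohort of litter mates. The mice were wild-type, of strain C57BL/6, 5 to 6 weeks old, and the labels give no treatment. The cells were enriched on beads for CD8 and then for CD4, so each sample is a pool that can hold some other thymus cells. The labels name 1 condition and 1 genotype, so no comparison between conditions exists, and the arrays could be set against each other only as cohorts.

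Notch receptors are cut by proteases when a neighbouring cell presents a Delta or Jagged ligand, and the freed intracellular domain enters the nucleus, binds RBPJ on DNA and recruits Mastermind (MAML) coactivators. In the thymus, Notch1 signalling from Dll4 on epithelial cells commits progenitors to the T lineage and is needed up to beta selection, the checkpoint at which thymocytes with a productive T cell receptor beta chain proceed to the DP stage. Signalling is known to decline after that checkpoint, which is why receptors, cofactors and targets were examined side by side in DP cells.

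Promoter sequences from RefSeq (GRCm38.p6), matched by symbol, were used for 8 of the 10 genes, not for Hes1 and Mib1. Member windows on 1 chromosome were left out, whereas the background shares kept all chromosomes. Within the 250 bases before the start, the core of the RBPJ motif (TGGGAA, searched on both strands) occurred in 2 of these 8 genes (25%), against 22.5% of 7308 genes above background with a promoter in the same table and 21.6% of all 32851 promoters. The 2 genes were Lfng and Rbpj itself, and Dtx1 and Nrarp, 2 established Notch targets, had no match in this window. The Lfng window (chr5:140607091-140607340, plus strand) and the first of the overlapping Rbpj windows (chr5:53590096-53590345, plus strand) are shown because they hold the pathway's own motif, in capitals, where TTCCCA is the motif on the other strand.
Lfng: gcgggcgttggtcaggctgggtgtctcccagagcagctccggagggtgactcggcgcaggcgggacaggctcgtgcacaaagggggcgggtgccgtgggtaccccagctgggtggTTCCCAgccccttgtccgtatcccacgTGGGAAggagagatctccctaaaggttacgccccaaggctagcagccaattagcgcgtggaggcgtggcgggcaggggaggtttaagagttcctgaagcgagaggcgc
Rbpj: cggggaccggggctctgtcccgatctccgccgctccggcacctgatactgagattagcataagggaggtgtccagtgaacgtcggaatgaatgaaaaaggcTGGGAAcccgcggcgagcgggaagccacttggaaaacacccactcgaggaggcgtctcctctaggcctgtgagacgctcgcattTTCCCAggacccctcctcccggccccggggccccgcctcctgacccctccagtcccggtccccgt
The motif began 135 and 108 bases before the Lfng start and 149 and 65 bases before the Rbpj start. The other Rbpj window held 1 match, the one that both windows share. These matches are letters in a window and say nothing about binding.

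The windows of the 3 receptor genes are shown next, since these genes were all highest on the same array, as described further on. Their capitals mark GGGCGG, the GC box, or CCGCCC on the other strand, which does not overlap the RBPJ core. It occurred 5 times in Notch1 (chr2:26503823-26504072, minus strand), 5 times in Notch2 (chr3:98013288-98013537, plus strand) and 4 times in Notch3 (chr17:32166891-32167140, minus strand), and in 7 of the 8 genes (87.5%). Of the 7308 genes above background 66.4% held it, as did 32.7% of all promoters in the table, so the GC box is common among genes detected here. Lfng, lowest on array 1, held it too, and Rbpj, highest on array 1, did not.
Notch1: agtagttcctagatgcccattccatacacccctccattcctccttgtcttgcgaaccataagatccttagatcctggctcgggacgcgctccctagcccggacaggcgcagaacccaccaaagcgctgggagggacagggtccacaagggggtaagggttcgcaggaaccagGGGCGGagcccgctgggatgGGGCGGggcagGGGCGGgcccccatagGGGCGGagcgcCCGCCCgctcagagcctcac
Notch2: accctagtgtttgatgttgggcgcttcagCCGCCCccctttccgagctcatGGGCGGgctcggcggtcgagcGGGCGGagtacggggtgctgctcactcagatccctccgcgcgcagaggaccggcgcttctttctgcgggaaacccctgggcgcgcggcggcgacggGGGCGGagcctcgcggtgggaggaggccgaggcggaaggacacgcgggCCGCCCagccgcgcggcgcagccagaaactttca
Notch3: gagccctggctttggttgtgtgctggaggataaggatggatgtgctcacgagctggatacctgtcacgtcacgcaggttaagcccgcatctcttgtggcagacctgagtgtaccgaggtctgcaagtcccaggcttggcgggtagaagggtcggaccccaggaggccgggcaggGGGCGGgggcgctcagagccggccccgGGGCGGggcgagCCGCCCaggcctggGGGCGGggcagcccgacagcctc
The 3 windows were rich in G and C, at 66.0% for Notch1, 72.0% for Notch2 and 68.8% for Notch3.

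The receptor and nuclear machinery was expressed in all 3 cohorts, while the target genes were not uniformly detected. The background limit of an array was set at the 95th percentile of the values of 105 genes that are characteristic of organs other than the thymus, and it was 7.09 on array 1, 7.08 on array 2 and 6.99 on array 3 (log2 units). By this limit 8 of the 10 members lay above background on all 3 arrays, against 45.3% of all genes. The exceptions were Hes1, above the limit on array 1 alone, and Nrarp, below it on every array. Signals of different probe sets depend on the affinity of their probes, so each gene is set against the limit and against itself on the other arrays, not against another gene. In these bulk samples, fewer cells that express a gene and less RNA per cell cannot be told apart.

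The samples carried the markers of their label. Of the DP stage genes, 7 of 7 measured exceeded the limit everywhere, among them Rag1, Cd4, Cd8a and Cd8b1, and 6 of these 7 were lowest on array 1, with mean deviations from the 3-array mean of -0.177, 0.097 and 0.080 on arrays 1, 2 and 3. Rag2, which encodes the partner of Rag1 in receptor gene rearrangement, had 8.69, 9.51 and 9.54 (limma's variance test between cohorts, unadjusted p = 0.00455, adjusted p = 0.861). Of the markers of other cells, 1 of 5 B cell, 3 of 11 myeloid and dendritic and 2 of 10 thymic epithelial ones were above background on all arrays. So were 3 of 8 stromal and endothelial and 0 of 4 erythroid markers, against 45.3% of all genes. A further 1 myeloid and dendritic, 4 thymic epithelial and 2 stromal and endothelial markers exceeded the limit on some arrays. Array 1 stood apart from the others, with Pearson's r across 28939 probe sets of 0.993 against each, compared with 0.996 between arrays 2 and 3. The sex-linked transcripts split the arrays the same way: Xist, made from the inactive X chromosome of females, had 11.65, 5.40 and 5.68 on arrays 1, 2 and 3, and the Y-linked Eif2s3y had 4.21, 10.29 and 10.08. Kdm5d and Uty, also Y-linked, were likewise below background on array 1 alone, so array 1 carried a female pattern and arrays 2 and 3 a male one. These 4 were the only genes with a single symbol to pass the adjusted variance test described further on. All 11 immediate-early genes measured were highest on array 1, and sex, these genes and cohort cannot be told apart on 3 arrays. Values over arrays 2 and 3 alone are given where a result rests on array 1.

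All 3 receptor genes of the list were above background on every array, and all 3 were highest on array 1, as were 34.5% of all genes and 38.7% of those above background. Notch1, the receptor that drives T lineage commitment, had 10.87, 10.54 and 10.57 on arrays 1, 2 and 3 (10.66 ± 0.18, mean ± SD, n = 3 arrays, log2 units here and below). The lowest of these was 3.46 log2 units above its limit, and it exceeded every limit tried. Notch2, a receptor best known in marginal zone B cells and dendritic cells, had 9.03, 8.67 and 8.81 (8.84 ± 0.18). Notch3, itself a Notch1 target in early thymocytes, had 8.97, 8.67 and 8.63 (8.76 ± 0.19).

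The differences between arrays were small for all 3 receptors. Relative to the mean of arrays 2 and 3, the value on array 1 was 1.24-fold higher for Notch1, 1.22-fold for Notch2 and 1.25-fold for Notch3. Arrays 2 and 3 lay closer to each other, with an SD over those 2 arrays of 0.021 for Notch1, 0.099 for Notch2 and 0.028 for Notch3. Of these 2 arrays, Notch1 and Notch2 were higher on array 3 and Notch3 on array 2. The SDs over 3 arrays, 0.183, 0.182 and 0.186 for Notch1, Notch2 and Notch3, compare with typical SDs of 0.105, 0.108 and 0.108 for probe sets of their level. None of the 3 passed limma's variance test (unadjusted p = 0.142 for Notch1, 0.155 for Notch2 and 0.148 for Notch3, adjusted p = 0.988 each), and the 6 probe sets that did pass it had SDs of at least 2.315. The myeloid and dendritic list deviated on average by 0.305, -0.312 and 0.006 from its 3-array mean on arrays 1, 2 and 3, ranging in mean level between 6.60 and 7.22, and 8 of its 11 genes were highest on array 1. Its 4 class II antigen presentation genes were among them: Cd74 had 8.83, 7.27 and 8.05, H2-Ab1 had 9.26, 7.91 and 8.50, H2-Eb1 had 8.82, 7.77 and 8.40, and H2-Aa had 8.44, 6.75 and 7.81. The first 3 were above background on all arrays and H2-Aa on arrays 1 and 3, and on array 1 they were 1.66 to 2.25-fold higher than on the mean of the others. The list's other 7 genes, among them Csf1r, Itgam, Itgax and Lyz2, were below background on every array. The DP stage genes other than Cd3e moved the other way on array 1, as given above. Whether other cells contributed to the receptor values was not tested.

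**Figure D1:**
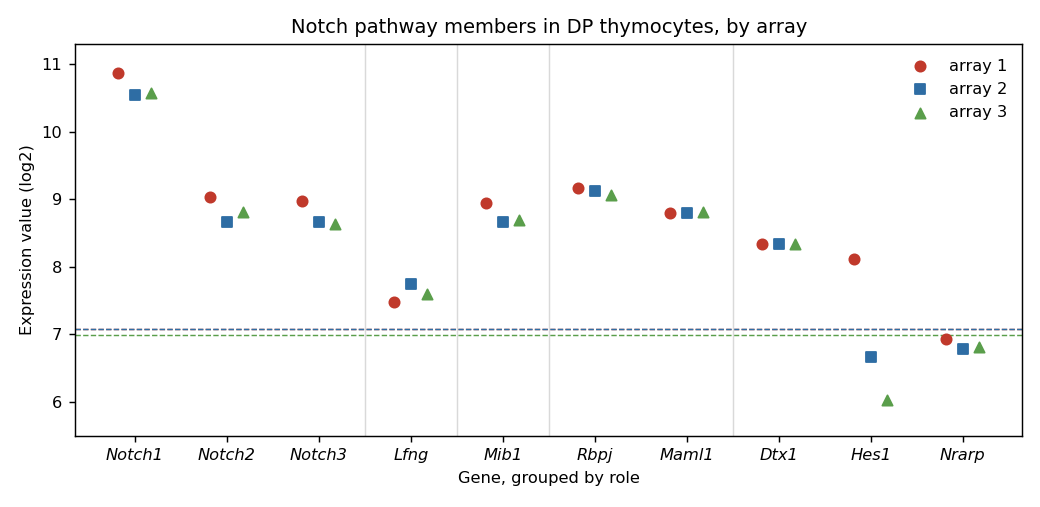
Expression values (log2, y axis) of the 10 members, grouped by role from left to right as receptors, Lfng, Mib1, nuclear factors and targets. Each point is 1 array, and dashed lines are the background limits of the arrays, which lie between 6.99 and 7.09; Hes1 crosses them and Nrarp lies below them on all arrays.

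The genes that modify receptors and ligands were detected as well, and on array 1 they lay on opposite sides of their 3-array means. Lfng encodes lunatic fringe, which extends O-fucose on Notch and favours its binding to Delta ligands. It had 7.48, 7.75 and 7.60 on arrays 1, 2 and 3 (7.61 ± 0.14) and was lowest on array 1. It was also the detected member nearest the limit, only 0.394 above it on array 1. On arrays 1 and 3 it fell below the stricter 99th percentile, which was 7.94 and 7.61 there. Mib1 encodes Mind bomb, a ubiquitin ligase that acts on ligands in the cell that sends the signal. It had 8.94, 8.67 and 8.69 (8.77 ± 0.15), highest on array 1, and its SD over arrays 2 and 3 alone was 0.0141. Neither passed the variance test (limma, unadjusted p = 0.361 for Lfng and 0.243 for Mib1, adjusted p = 0.988 for both).

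The nuclear factors varied little between cohorts. Rbpj, the DNA-binding partner of the receptor fragment, had 9.17, 9.12 and 9.06 (9.12 ± 0.06). Maml1, a coactivator that joins it, had 8.80, 8.80 and 8.81 (8.80 ± 0.01). The 3 arrays were within 0.11 log2 units of each other for Rbpj and within 0.01 for Maml1. Rbpj was the only member with more than 1 probe set, and the other, with 5.20, 5.87 and 6.06, lay below background on every array and was lowest on array 1, where the brighter one was highest. The Rbpj values therefore hold for the brighter probe set alone.

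The 3 target genes gave 3 different pictures. Dtx1, which encodes the ubiquitin ligase Deltex1 and is induced by Notch in early thymocytes, had 8.34 on each of the 3 arrays, at least 1.25 log2 units above the limit. Nrarp, which encodes an ankyrin-repeat protein that dampens Notch signalling, had 6.93, 6.78 and 6.81 (6.84 ± 0.08), which stood at between -0.300 and -0.156 from the limits. A lower limit tried was the median of the genes of other organs plus 1 log2 unit (6.71, 6.82 and 6.71). Nrarp exceeded that limit on arrays 1 and 3 alone. Hes1, which encodes a bHLH repressor and is a direct RBPJ target, had 8.11, 6.66 and 6.03 (6.93 ± 1.07). It was above background on array 1 and below it on arrays 2 and 3, so its order on those 2 arrays cannot be read.

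Hes1 was the member with the largest spread between cohorts. The measured value on array 1 was 2.73-fold that on array 2 and 4.23-fold that on array 3. Since arrays 2 and 3 were below background, the differences are bounds, at least 2.04-fold and at least 2.18-fold when the dim value is set at the limit of its array. Its range of 2.08 log2 units exceeded 1 log2 unit, a threshold chosen after its values were seen, as did that of 93 of 19938 genes (0.466%) and of no other member. Its SD of 1.07 compares with a typical SD of 0.126 for probe sets of its level.

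The variance test did not call Hes1 once all probe sets were counted. Its unadjusted p was 0.000293, and after Benjamini-Hochberg adjustment over 28939 probe sets it was 0.326 (limma, F test against a robust mean-dependent prior), higher on array 1 than on both others. By that test 0 of 10 members passed the adjusted threshold, where 0.0207% of all probe sets did, all of them with an SD of at least 2.315. Only Hes1 had an unadjusted p under 0.05, where 4.66% of all probe sets did. Leaving out array 1 reduced the SD of Hes1 to 0.446 on values that were both below background, and leaving out array 2 raised it to 1.47.

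**Figure D2:**
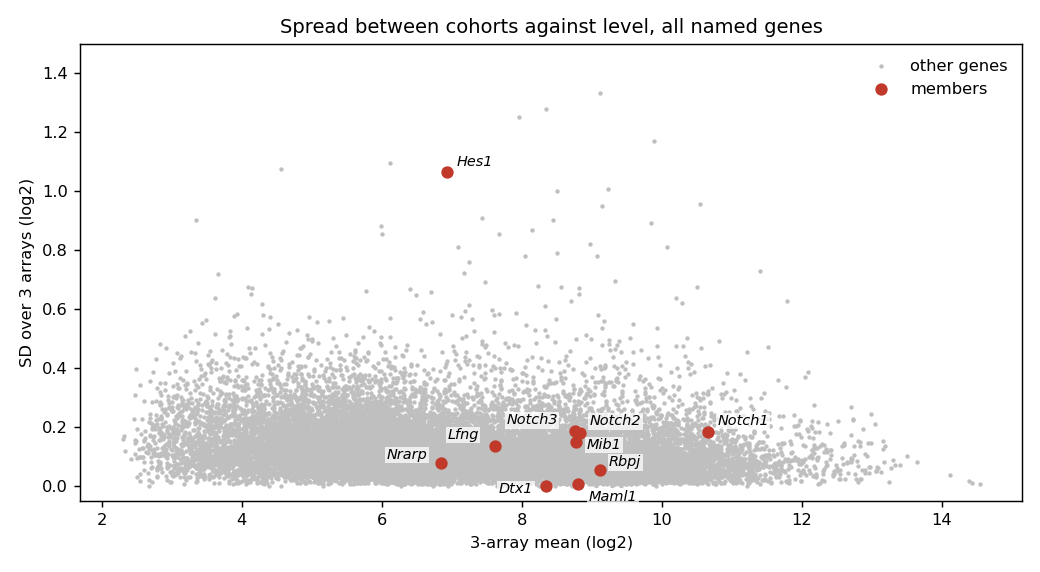
SD over the 3 arrays (y axis, log2) against the 3-array mean (x axis, log2) for all genes with a symbol (grey) and the 10 members (red). Hes1 stands apart at an SD of 1.07 while the other 9 members lie at 0.186 or below; 4 genes with an SD above 1.5 are off the axis.

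The profiles nearest to that of Hes1 included 3 immediate-early genes, a class transcribed within minutes of a stimulus. Among genes above background on all arrays, the 5 with deviations nearest to its own by Euclidean distance over 3 arrays were Snora44 (0.263), Junb (0.376), Gramd3 (0.448), Jun (0.482) and Nr4a1 (0.517, log2 units). Snora44 is a small nucleolar RNA gene, and Junb, Jun and Nr4a1 encode inducible transcription factors. Over only 3 arrays any gene high on 1 of them is near any other, so the distances are a description that rests on array 1, and they use Hes1 values on arrays 2 and 3 that were below background.

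Like Hes1, the immediate-early genes were highest on array 1. Their list of 11 genes deviated on average by 0.895, -0.467 and -0.427 on arrays 1, 2 and 3, and Hes1 by 1.18, -0.27 and -0.90. Junb had 9.65, 7.97 and 7.87 and Jun had 11.01, 9.65 and 9.56. Egr1 and Zfp36 differed less between arrays, with 8.55, 8.28 and 8.33, and 10.47, 10.10 and 10.12. Over arrays 2 and 3 alone the list differed by -0.040 on average (array 2 minus array 3), with 3 genes higher on array 2 and 8 on array 3. Fos, the first gene of that list, had 9.39, 7.86 and 8.27. Of the list's 11 genes, 10 were above background on all arrays, and none passed the adjusted variance test while 9 had an unadjusted p under 0.05. The class II genes were also highest on array 1, as given above. Of 6 early thymocyte markers, 2 were highest on array 1 and 1 was lowest there, with mean deviations of 0.101, -0.092 and -0.009. The 2 were Cd44, with 7.66, 6.84 and 7.05, and Il2ra, which was below background on every array. Only 1 of the 6 was above background on all arrays. What part the immediate-early genes, the class II genes, early thymocytes or the sex of the cohort had in the Hes1 value was not tested.

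**Figure D3:**
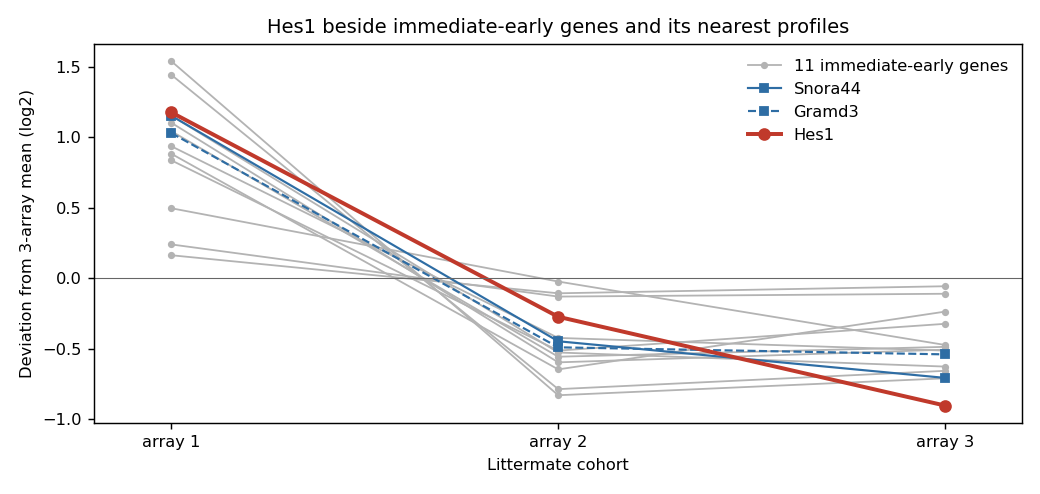
Deviation from the 3-array mean (log2, y axis) on each array for Hes1 (red), for 11 immediate-early genes (grey) and for Snora44 and Gramd3 (blue), the nearest profiles outside that list. All are highest on array 1; the Hes1 points on arrays 2 (-0.27) and 3 (-0.90) come from values below background.

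More members were highest on array 1 than on the other arrays. Of the 10, 7 were highest on array 1 (9 under median centring, which added Dtx1 and Maml1), against 34.5% of all genes, and 1 was lowest there, against 39.3%. Their mean deviation was 0.198, -0.066 and -0.131 on arrays 1, 2 and 3, and 0.089, -0.043 and -0.046 for the 9 other than Hes1, against -0.002, 0.006 and -0.004 over all genes. The DP stage genes, by contrast, had -0.177, 0.097 and 0.080. Of these, Dntt, which adds bases at receptor gene joints, was 0.76-fold on array 1 relative to the mean of the others, and Rag2 0.561-fold. Cd3e, of the same list, went the other way, at 1.24-fold, and was highest on array 1. Over arrays 2 and 3 alone, 4 members were higher on array 2, 5 on array 3 and 1 was tied, with a mean difference of 0.065 (array 2 minus array 3), against 0.010 over all genes. The 7 highest on array 1 were the 3 receptors, Mib1, Rbpj, Hes1 and Nrarp, of which Rbpj and Nrarp differed by 0.15 or less over the arrays. The median SD of the members was 0.143, against 0.111 over all genes and 0.095 over those above background on all arrays. Without array 1 the members' median SD fell to 0.0247 over the 2 remaining arrays. That last value was not computed for all genes. Arrays 2 and 3 were also the closest pair over all probe sets (Pearson's r of 0.996, against 0.993 for each other pair). The members were selected with earlier results of these arrays known, and the count is a description without a test.

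**Figure D4:**
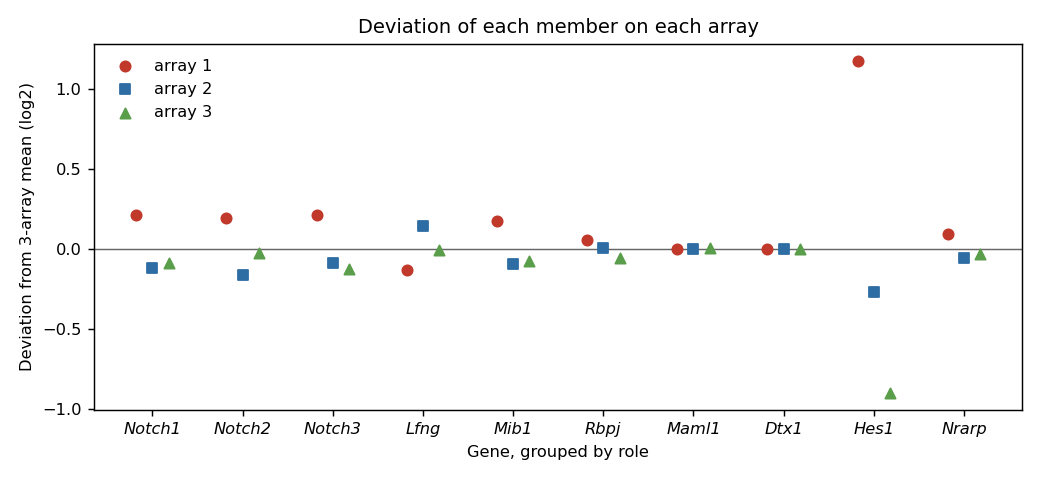
Deviation of each member from its 3-array mean (log2, y axis), with 1 point per array and genes grouped by role. The receptors and Mib1 sit 0.173 to 0.213 above their mean on array 1, Lfng sits 0.13 below it, and Hes1 spans 1.18 to -0.90.

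The rest of the pathway gave the context for these genes. Of 66 further genes listed by role, 61 had a probe set of their own, and 46 of them were above background on all arrays, 5 on some and 10 on none, against 45.3% of all genes on all arrays. None passed the adjusted variance test and 2 had an unadjusted p under 0.05 (limma), namely Dtx3 (0.0349) and Il2ra (0.0337, below background on every array), chosen after their values were seen, no larger a share than the 4.66% of all probe sets. As a group they did not lean to one array, with mean deviations of -0.002, 0.004 and -0.002 on arrays 1, 2 and 3, and 23 of 61 highest on array 1.

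Genes that make and cut the receptor were detected throughout. All 8 measured genes of receptor cleavage were above background on every array. Adam10, the protease that makes the first ligand-dependent cut, had 10.19, 10.39 and 10.52, and Adam17 had 9.60, 9.94 and 9.85. The gamma-secretase genes Psen2 and Ncstn, for the presenilin catalytic subunit and nicastrin, had 7.72, 7.69 and 7.66, and 9.54, 9.64 and 9.62. Unlike the receptors, Adam10 and Adam17 were lowest on array 1, by at most 0.34. All 4 genes of receptor glycosylation were above background too. Pofut1, which adds the O-fucose that fringes extend, had 8.21, 8.19 and 8.26, and Poglut1, which adds O-glucose, had 8.02, 8.34 and 8.19. The fringes Mfng and Rfng averaged 8.95 ± 0.08 and 8.63 ± 0.08.

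The ligands were the least detected group. Of 6 genes, counting the receptor Notch4, only Jag2 was above background on all arrays, with 7.47, 7.13 and 7.18. Dll4, the thymic epithelial ligand of Notch1, had 6.64, 7.01 and 6.74, and Dll1 had 6.33, 6.64 and 6.40. Jag1 had 5.28, 5.83 and 5.52, and all 3 stayed below background on every array. Notch4, the endothelial receptor, exceeded it on array 3 alone, with 7.01, 7.02 and 7.10. Jag2 was near the limit and did not exceed the 99th percentile, so 1 ligand gene exceeded the main limit on all arrays and 0 exceeded that stricter one. Of the 10 thymic epithelial markers, 2 were above background on all arrays, 4 on some and 4 on none. Cldn4 had 8.88, 9.06 and 9.03 and Ccl25, a thymic chemokine gene, had 7.49, 7.68 and 7.76. On array 3 alone, Krt8 (7.55), Krt18 (7.58) and Psmb11 (7.03) exceeded the limit, as Aire did on array 2 alone (7.11). Foxn1, the master regulator of that lineage, was below it on every array. Whether the Cldn4 signal came from epithelial cells, and what part such cells had in the ligand values, was not tested.

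Regulators of receptor turnover were mostly expressed. Of 11 genes for trafficking and ubiquitin ligases, 9 were above background on all arrays. Numb, an endocytic inhibitor of Notch, had 8.23, 7.98 and 7.99, Itch, a ubiquitin ligase, had 10.02, 10.19 and 10.19, and Fbxw7, which marks the intracellular domain for destruction, had 8.38, 8.31 and 8.31. A further probe set of Fbxw7, with 4.50, 4.10 and 4.34, was below background. The exceptions were Numbl, with 7.23, 7.08 and 7.24, and Dtx4, with 6.46, 6.71 and 6.99, at or around the limit.

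Both sides of the RBPJ switch were present. Of 9 coactivator genes, 8 were above background on all arrays, and Maml3 was so on 2 (6.85, 7.18 and 7.18). Maml2 had 8.38, 8.23 and 8.21, and the acetyltransferase genes Ep300 and Crebbp averaged 10.08 ± 0.08 and 11.28 ± 0.06. Of 11 measured corepressor genes, 9 were above background on all arrays. Spen, whose protein binds RBPJ in its repressor form, averaged 10.12 ± 0.09, Cir1 9.23 ± 0.07, Kdm5a 10.67 ± 0.12 and Hdac1 11.45 ± 0.15. Bend6, at 4.86 ± 0.06, was below background, and Tle1 exceeded it on array 1 alone (7.18, 7.00 and 6.89).

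Some of the further targets were detected and others were not. Of 12 measured, 7 exceeded the limit on every array, against 45.3% of all genes, and the other 5 did so nowhere. Most genes divided in this way: of all 19938, 9022 exceeded it everywhere, 739 on some arrays and 10177 nowhere. Hes5, a relative of Hes1, had 7.85, 7.90 and 7.85, and Ptcra, which encodes a chain of the pre-T cell receptor, had 8.23, 8.44 and 8.35. Neither was highest on array 1, whereas Myc, also detected, was, with 9.53, 9.10 and 9.25. Of the 12, 4 were highest on array 1 and 6 were lowest there. The 5 below background were Hey1 (6.50 ± 0.17), Hey2 (4.95 ± 0.13), Heyl (6.94 ± 0.08), Il2ra (6.60 ± 0.35) and Ccnd1 (6.60 ± 0.12). Of these, the 3 Hey genes encode relatives of the Hes repressors, Il2ra the CD25 chain of early thymocytes and Ccnd1 cyclin D1. Il2ra had 6.98, 6.28 and 6.54, and like Hes1 it was highest on array 1, but it did not exceed background there.

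**Figure D5:**
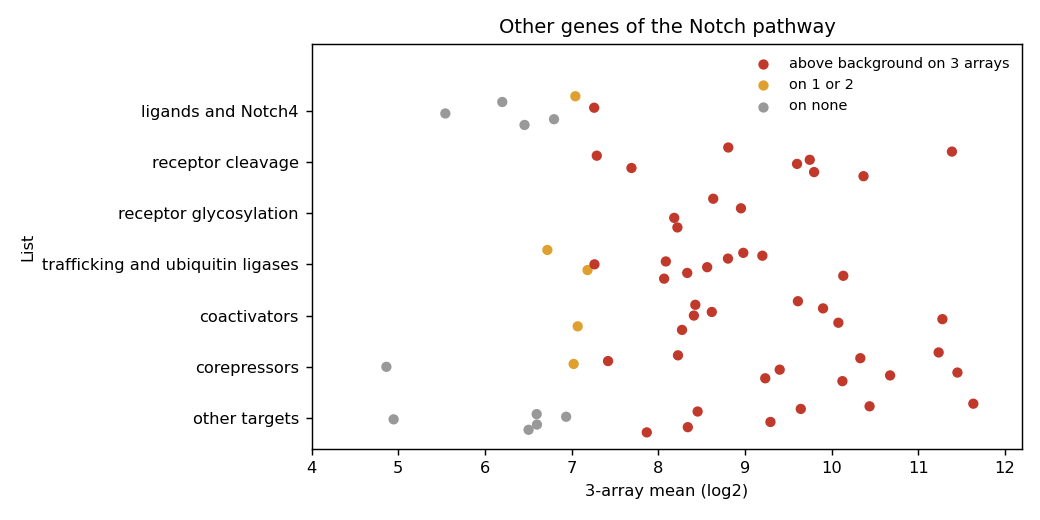
The 3-array mean (log2, x axis) of the 61 further pathway genes, 1 point per gene, by list from ligands at the top to further targets at the bottom. Red points are above background on all 3 arrays, orange on 1 or 2 and grey on none; the 8 receptor cleavage genes are all red, and 1 of 6 genes in the ligand list is.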

How the data were processed

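Per the labels, total RNA of DP thymocytes was extracted with TRIzol, and the protocol also describes formaldehyde fixation without saying whether the RNA samples were fixed. The authors' deposited values are log2 expression per probe set, rounded to 2 decimals, a scale read from the values. Per the submitters' processing notes the R package affy was used; its version, its normalization settings and the array's build were not stated there or in the labels. Ranked from lowest to highest, the arrays' values differ by no more than 0.15 between arrays, so a global difference in RNA between cohorts would not show. The number of arrays limits the precision. Each p-value compares a probe set's spread between the 3 cohorts with the spread typical of its level.

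Gene names came from the platform annotation, in which 21789 of 35556 probe sets have 1 symbol, 1621 several and 12146 none; RefSeq gene IDs (GRCm38.p6, names only) matched 21698 and changed 0. The 6617 probe sets numbered below the first annotated one were left out of the variance test, leaving 28939. That test used limma 3.58.1 (R 4.3.3), with a mean-only fit of each probe set, an F test of each variance against a robust mean-dependent prior with the prior's highest degrees of freedom, and Benjamini-Hochberg adjustment at 0.05. It was tested on simulated data. Tables were handled with pandas 2.3.3 and numpy 2.4.6 under Python 3.11.15. The background limit used 105 measured of 113 listed genes of other organs, of which 5 exceed it on all arrays.

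The members, lists and tests were chosen with earlier results of these data known. The naming rule took all members, the first 4 measured genes of each pathway list, genes on the minority side of the limit where these were 5 or fewer, and the 5 profiles nearest to the most variable member. Alternatives were 2 other limits, 2 other ways to represent a gene, 2 normalizations, 2 priors, a filter on dim probe sets and leaving out each array.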

Additional observations from a re-analysis of the deposited data

How the results depend on the processing

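The count of members above background on all arrays was 8 in the main setting and 7 or 8 in every alternative run: 7 with the 99th percentile, which removed Lfng, and 7 with the dimmest probe set, which removed Rbpj. For the other pathway genes it was 46 and ran between 39 (99th percentile) and 51 (median plus 1 log2 unit). The count of members highest on array 1 was 7 under quantile normalization, 6 with the mean of a gene's probe sets, and 9 under median centring, which put Dtx1 and Maml1 on array 1 at 0.008 and 0.005 above their means. Leaving out each array in turn gave 8 members and between 46 and 47 pathway genes above background, 0 members past the variance test, a median member SD between 0.0247 and 0.191, the lowest without array 1, and an SD of Hes1 between 0.446 and 1.47; without array 2 or array 3, 7 members were highest on array 1. No member passed limma's variance test in any alternative run, with 1 member (Hes1) at an unadjusted p under 0.05 in each; its adjusted p ran between 0.326 and 0.972. No paired analysis was possible because the design holds 1 group. Signals near the limit (Lfng, Nrarp, Jag2) and 3 arrays limit what can be told.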
